A study of Mus musculus with 4 samples.

Results

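Chemokines and their receptors were described in subcutaneous tumors with and without knockdown of Taz. Members were taken by gene symbol: Ccl, Cxcl, Ccr and Cxcr followed by a number, symbols that begin with Cx3c, and Pf4, Ppbp, Darc and Ccrl2. The rule found 50 of the 15424 genes in the deposited table, of which 33 encode ligands, 14 receptors and 3 atypical receptors. They were grouped by the leukocyte that each axis mainly attracts.

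The tumors grew in nude mice from transplanted R728T1 cells, which the labels call non-SMCs (a term they leave unexplained) derived from an Rb/P53 mouse model, and the labels give small cell lung cancer as the cell type. The shTaz group carried a knockdown of Taz and the shLuc group a control shRNA against luciferase, with 2 samples in each group, 4 in all. The table holds 1 FPKM value per gene and group (fragments corrected for transcript length and library total), and how the 2 samples were combined is not stated. There is therefore no replicate spread, no SD and no test for any value below, and the sequencing depth is unknown. Tumor cells and host are both mouse, so a level cannot be assigned to either. Nude mice lack mature T cells but keep neutrophils, monocytes, macrophages, mast cells, NK cells and B cells. Wwtr1, the gene of TAZ, was at 15.1 FPKM in shTaz and 23.4 FPKM in shLuc, or 64.5% of the shLuc level. The row with the symbol Taz, an older name of the gene of tafazzin, was at 9.50 FPKM in shTaz and 13.7 FPKM in shLuc. Neither the number of animals nor the shRNA sequence is given in the sources used here.

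Chemokines are small secreted proteins that guide leukocytes along a concentration gradient through receptors coupled to G proteins. CXC ligands that carry an ELR motif before the first cysteines act through CXCR2 on neutrophils, CCL2-type ligands act through CCR2 on monocytes, and the CXCR3 ligands follow interferon. Atypical receptors bind chemokines without classical G protein signalling and scavenge, transport or present them. In tumors these axes are known for the recruitment of neutrophils and of monocytes that become macrophages.

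The promoters of the neutrophil chemokines Cxcl1, Cxcl2 and Cxcl3 and of the interferon-induced Cxcl10 are shown because they hold letters known as binding motifs of induced transcription factors, and those of Ccl12 and Ccl8 because these neighbours differed in opposite directions. Each runs from 250 bases before to 50 bases after the start of the gene, 5′ to 3′ on the strand of the gene, and was taken from RefSeq (GRCm38.p6). Capitals mark an NF-kB motif (GGGA and TTCC with any 2 bases between them), an interferon-stimulated response element (GAAA and GAAA with any 2 bases between them) or a TEAD motif (CATTCC), each searched on both strands. TEAD proteins are the DNA-binding partners of TAZ.
Cxcl1, chr5:90890995-90891294, plus strand: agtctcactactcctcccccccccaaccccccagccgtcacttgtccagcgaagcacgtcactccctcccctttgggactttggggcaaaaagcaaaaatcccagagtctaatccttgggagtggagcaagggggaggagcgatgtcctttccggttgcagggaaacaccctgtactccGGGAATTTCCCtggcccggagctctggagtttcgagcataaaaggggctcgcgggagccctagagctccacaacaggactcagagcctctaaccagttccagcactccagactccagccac
Cxcl2, chr5:90903649-90903948, plus strand: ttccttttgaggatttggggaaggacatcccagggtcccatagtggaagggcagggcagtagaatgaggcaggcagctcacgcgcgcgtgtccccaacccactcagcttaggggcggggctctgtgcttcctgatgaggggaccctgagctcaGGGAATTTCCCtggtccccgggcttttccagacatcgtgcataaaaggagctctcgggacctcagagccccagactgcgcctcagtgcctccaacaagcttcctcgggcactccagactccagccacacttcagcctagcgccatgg
Cxcl3, chr5:90785851-90786150, plus strand: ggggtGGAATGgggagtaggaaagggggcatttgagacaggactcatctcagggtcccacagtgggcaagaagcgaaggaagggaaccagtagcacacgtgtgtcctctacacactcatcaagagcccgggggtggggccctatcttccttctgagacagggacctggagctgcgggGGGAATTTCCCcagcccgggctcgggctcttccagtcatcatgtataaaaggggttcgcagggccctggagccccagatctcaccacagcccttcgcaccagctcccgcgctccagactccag
Cxcl10, chr5:92348840-92349139, minus strand: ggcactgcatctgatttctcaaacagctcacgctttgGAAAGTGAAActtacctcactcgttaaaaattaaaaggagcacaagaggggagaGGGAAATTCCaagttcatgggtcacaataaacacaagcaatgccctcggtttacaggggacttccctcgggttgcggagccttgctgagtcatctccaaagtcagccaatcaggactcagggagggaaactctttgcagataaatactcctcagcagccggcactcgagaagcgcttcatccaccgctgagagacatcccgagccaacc
Ccl12, chr11:82101595-82101894, plus strand: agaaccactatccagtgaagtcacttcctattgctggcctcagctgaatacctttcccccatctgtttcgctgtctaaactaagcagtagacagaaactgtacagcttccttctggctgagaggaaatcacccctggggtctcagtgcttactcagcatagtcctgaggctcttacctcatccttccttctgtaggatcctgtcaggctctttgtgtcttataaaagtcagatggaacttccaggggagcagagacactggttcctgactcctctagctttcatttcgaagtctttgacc
Ccl8, chr11:82114935-82115234, plus strand: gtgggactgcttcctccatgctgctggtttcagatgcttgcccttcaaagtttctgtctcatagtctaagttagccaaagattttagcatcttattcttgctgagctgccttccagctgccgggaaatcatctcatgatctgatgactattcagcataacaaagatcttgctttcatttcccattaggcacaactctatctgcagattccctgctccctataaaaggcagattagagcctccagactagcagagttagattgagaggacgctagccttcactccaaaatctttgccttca

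RefSeq promoters were matched for 37 of the 50 members, some with more than 1 promoter, and a gene was counted where any of its promoters held the letters. The remaining members, among them Cxcl5, Ccl5, Ccl2, Ccl4 and Ccl7, were not searched. The NF-kB letters stood in 6 of these 37 genes, against 1.63% of all 27025 genes with such promoters. In Cxcl1, Cxcl2 and Cxcl3 they matched on both strands with an overlap, first 71, 97 and 73 bases before the start, and in Cxcl10 on 1 strand at 159 bases before it. The other members were Ccl1 and Ccr3. The response element stood in Cxcl10, Cxcl14 and Ccl19 (3.99% of all genes). The TEAD letters stood in 7 of the 37 members, Ccl17, Ccr6, Ccrl2, Cxcl13, Cxcl3, Cxcr2 and Ppbp, against 16.6% of all genes. None of these letters were found in these windows of Ccl12 and Ccl8. A match describes the sequence and is not evidence of binding.

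Of the 50 members, 33 averaged 1 FPKM or more over both groups and 17 did not. A difference is log2((shTaz FPKM + 1)/(shLuc FPKM + 1)), and a value of at least 1 or at most -1 is called 2-fold. Among the 33 members, 5 were 2-fold higher in the shTaz column, namely Cxcl5, Ccrl2, Ccr2, Ccr1 and Cxcl2, against 3.96% of the 11650 genes with such a mean. A further 3 were 2-fold lower, namely Ccl8, Darc and Ccl5, against 3.25% of all genes, so that 8 of 33 differed in either direction, against 7.21% of all genes. The median difference was 0.46 over the 33 members and 0.12 over all genes. Of the 33, 6 had a value under 1 FPKM in either column and reached the mean through the higher column, namely Cxcl2, Ppbp, Cxcr6 and Ccl25 through shTaz and Darc and Ccr7 through shLuc. The counts and medians describe these columns and were not tested.

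**Figure D1:**
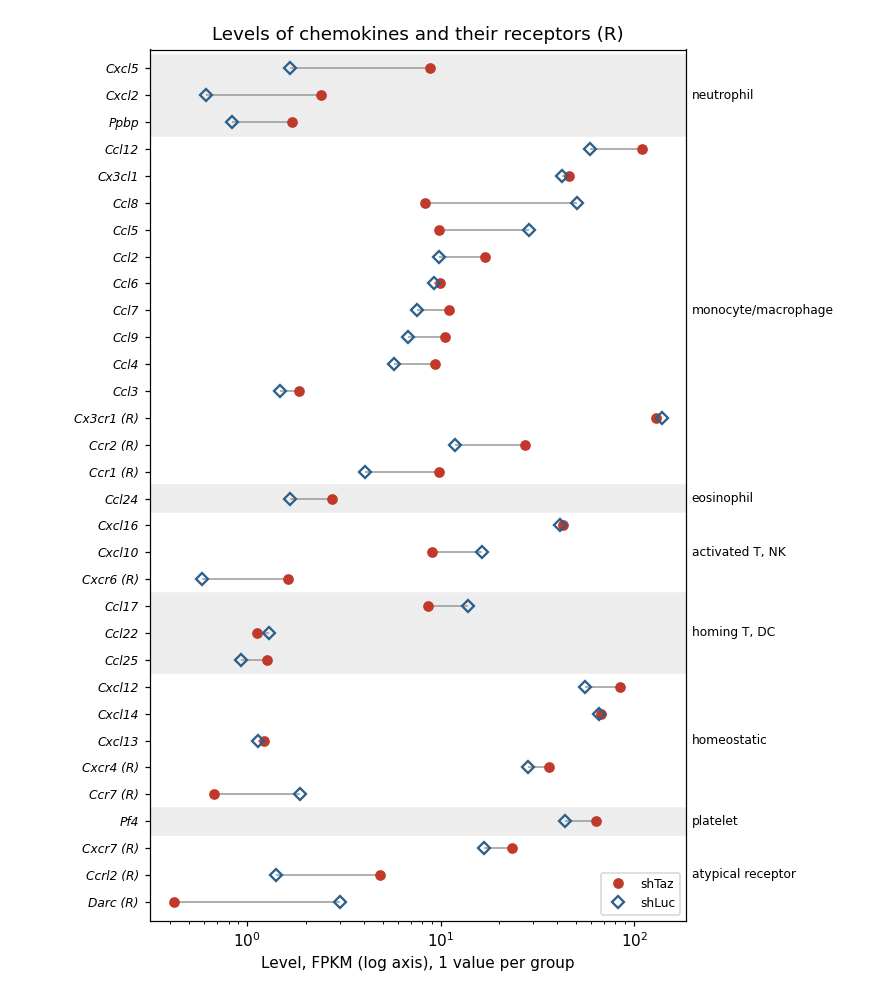
Levels of 32 members that averaged 1 FPKM or more, in FPKM on a log axis, with 1 value per group (filled circles shTaz, open diamonds shLuc). Names followed by R are receptors, and the names at the right give the axis. Cxcl5 lies at 8.80 FPKM in the shTaz column and 1.66 FPKM in the shLuc column, and Ccl8 at 8.29 FPKM in the shTaz column and 50.4 FPKM in the shLuc column.

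Levels spanned a wide range. The most abundant member in both columns was Cx3cr1, the fractalkine receptor of monocytes and macrophages, with a level of 130 FPKM in the shTaz column and 139 FPKM in the shLuc column. In the shTaz column it was followed by Ccl12 at 110 FPKM, Cxcl12 at 84.0 FPKM, Cxcl14 at 67.4 FPKM and Pf4 at 63.4 FPKM. In the shLuc column the order below Cx3cr1 was Cxcl14 at 66.0 FPKM, Ccl12 at 58.8 FPKM, Cxcl12 at 56.0 FPKM, Ccl8 at 50.4 FPKM and Pf4 at 43.8 FPKM. Ccl8, at 8.29 FPKM in the shTaz column, was thus among the most abundant members of the shLuc column alone. Over all ligands the levels summed to 531 FPKM in the shTaz column and 472 FPKM in the shLuc column. The CC ligands summed to 201 FPKM in shTaz and 199 FPKM in shLuc, and the CXC ligands to 284 FPKM in shTaz and 231 FPKM in shLuc.

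Of the ligands of CXCR2, which attract neutrophils, Cxcl5 was higher in the shTaz column. The others except Cxcl15 ran the same way, but none of the others reached 1 FPKM in both columns. Cxcl5, an epithelial neutrophil chemokine, was at 8.80 FPKM in the shTaz column and 1.66 FPKM in the shLuc column, a ratio of 5.29 and a difference of 1.88 on the log2 scale. Of all genes 99.7% had a lower difference. Cxcl2, also called MIP-2 and made by activated macrophages, was at 2.40 FPKM in shTaz and 0.608 FPKM in shLuc, a ratio of 3.95 and a difference of 1.08, which was 0.95 with quantile normalization and 0.70 with the GC trend removed. Ppbp, whose product is released by platelets and cleaved to a CXCR2 ligand, was at 1.71 FPKM in shTaz and 0.829 FPKM in shLuc, a difference of 0.57 that was 0.09 with the GC trend removed. Cxcl2 and Ppbp averaged 1 FPKM only through the shTaz column, so that Cxcl5 was the 1 ligand of CXCR2 with at least 1 FPKM in both columns.

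The other CXCR2 ligands were near the lower end of the table. Cxcl1, or KC, a major neutrophil chemokine of the mouse, was at 0.724 FPKM in shTaz and listed at 0 in shLuc. Cxcl3 was at 0.887 FPKM in shTaz and 0.627 FPKM in shLuc. Cxcl15, or lungkine, a chemokine of the lung epithelium, ran the other way at 0.115 FPKM in shTaz and 1.502 FPKM in shLuc. Over all 6 ligands the levels summed to 14.6 FPKM in shTaz and 5.23 FPKM in shLuc. Their receptor Cxcr2 was not higher, at 0.694 FPKM in shTaz and 0.867 FPKM in shLuc, and the symbol Cxcr1 was not listed.

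Neutrophil markers outside the chemokine system moved in both directions. Of 12 markers fixed as a list 9 were listed, 4 of them averaging 1 FPKM or more. S100a9, a calcium-binding protein of neutrophils, was at 29.2 FPKM in shTaz and 0.810 FPKM in shLuc, and S100a8 at 18.6 FPKM in shTaz and 0 in shLuc. Both averaged 1 FPKM or more only through the shTaz column. Csf3r was at 7.10 FPKM in shTaz and 3.93 FPKM in shLuc. Mmp9, a protease that macrophages also make, was at 45.0 FPKM in shTaz and 125 FPKM in shLuc, and made the summed level of the list lower in shTaz, at 103 FPKM against 131 FPKM in shLuc. The granule genes Camp and Mmp8 were listed at 0 in shTaz and at 0.836 and 0.169 FPKM in shLuc. Ngp and Retnlg were listed at 0 in shLuc and at 0.455 and 1.91 FPKM in shTaz. The part of neutrophil number in the ligand levels was not tested. In bulk tumors more cells of a type and more RNA per cell cannot be told apart.

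**Figure D2:**
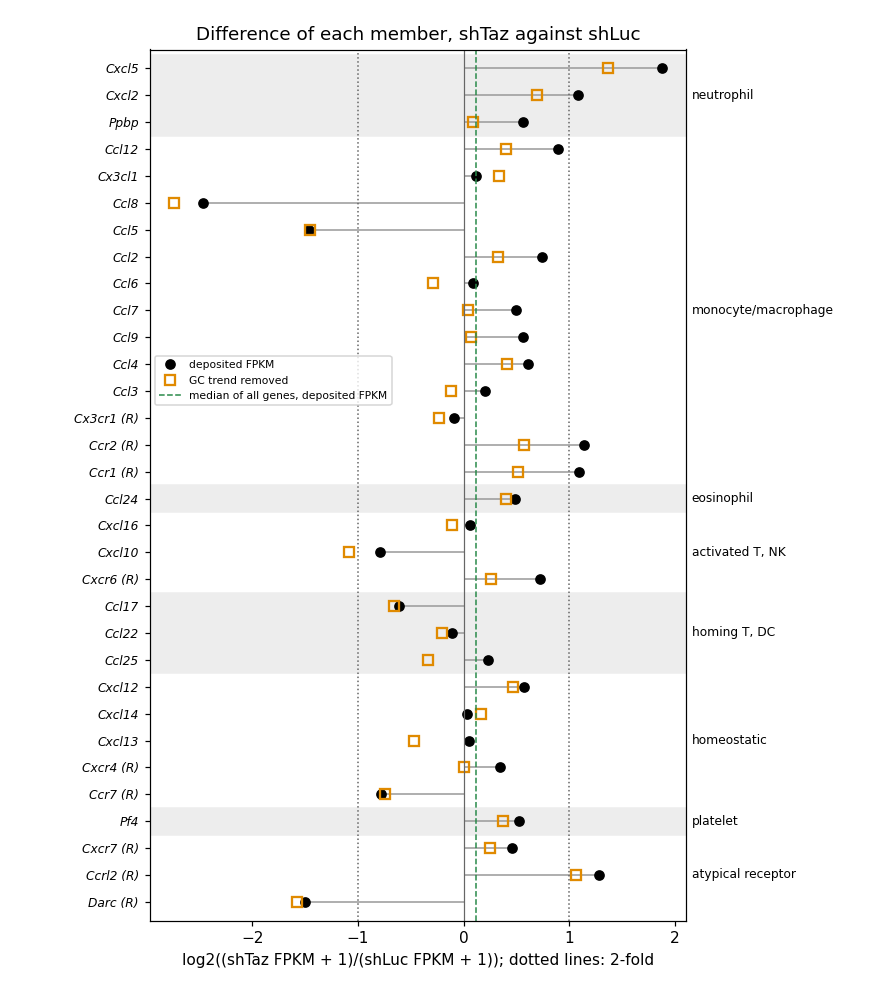
Difference of the same 32 members on the log2 scale, from the deposited FPKM (filled circles) and with the trend on GC content removed (open squares). Dotted lines mark 2-fold, the solid line 0 and the dashed line the median of all genes, 0.12. The filled circles of Cxcl5, Ccrl2, Ccr2, Ccr1 and Cxcl2 lie right of the upper dotted line and those of Ccl8, Darc and Ccl5 left of the lower one, while the squares of Ccr2, Ccr1 and Cxcl2 lie inside it and that of Cxcl10 outside.

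Monocyte chemokines of the MCP family differed in opposite directions. Ccl12, or MCP-5, a mouse ligand of CCR2, was at 110 FPKM in shTaz and 58.8 FPKM in shLuc, a difference of 0.89 that was 1.06 with quantile normalization and 0.40 with the GC trend removed. Ccl2, or MCP-1, the main monocyte attractant, was at 17.01 FPKM in shTaz and 9.75 FPKM in shLuc, and Ccl7, or MCP-3, at 11.002 FPKM in shTaz and 7.50 FPKM in shLuc. These 3 were thus higher in the shTaz column, Ccl7 by only 0.04 once the trend on GC content was removed. Ccl8, or MCP-2, was at 8.29 FPKM in shTaz and 50.4 FPKM in shLuc, or 16.4% of the shLuc level. Its difference of -2.47 was the lowest of the members, and 0.30% of all genes lay lower. Ccl8 in the mouse acts through CCR8, and the symbol Ccr8 was not listed.

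Of the receptors of monocytes, Ccr2 and Ccr1 were higher. Ccr2 itself was at 27.2 FPKM in shTaz and 11.8 FPKM in shLuc, a ratio of 2.30. Ccr1, a receptor for CCL3, CCL5, CCL6 and CCL9 on monocytes and neutrophils, was at 9.79 FPKM in shTaz and 4.06 FPKM in shLuc, a ratio of 2.41. Their differences of 1.14 and 1.09 passed 2-fold by a small margin and were 0.57 and 0.52 with the GC trend removed; that of Ccr1 was also 0.98 with median-ratio scaling and 0.92 with quantile normalization. Cx3cr1 had a difference of -0.10, which turned to 0.13 with quantile normalization.

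Among the other ligands of monocytes and macrophages, Ccl5 was 2-fold lower and the rest differed by less than 2-fold. Ccl5, or RANTES, made by activated lymphocytes, macrophages and platelets, was at 9.74 FPKM in shTaz and 28.6 FPKM in shLuc, or 34.1% of the shLuc level and a difference of -1.46. Ccl4, or MIP-1 beta, was at 9.29 FPKM in shTaz and 5.74 FPKM in shLuc, and Ccl9, a ligand of CCR1 found in rodents, at 10.5 FPKM in shTaz and 6.80 FPKM in shLuc. The closely related Ccl3 was at 1.84 FPKM in shTaz and 1.47 FPKM in shLuc, and Ccl6 at 9.88 FPKM in shTaz and 9.24 FPKM in shLuc. The sign of the difference of both turned with the GC trend removed, and the difference of Ccl9 fell from 0.56 to 0.07. Cx3cl1, or fractalkine, a membrane-bound ligand of CX3CR1, was at 45.8 FPKM in shTaz and 42.3 FPKM in shLuc. In all, 8 of the 10 monocyte and macrophage ligands were above 0 on the difference scale, against 58.3% of all genes, and 6 with the GC trend removed, against 50.3%. The summed level was 233 FPKM in shTaz and 221 FPKM in shLuc.

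Macrophage markers were nearly equal in sum, and the sum of the monocyte markers was lower. The 11 macrophage markers were all listed and summed to 4919 FPKM in shTaz and 5071 FPKM in shLuc, with a median difference of 0.36. Csf1r, the receptor for the growth factor CSF1, was at 174 FPKM in shTaz and 132 FPKM in shLuc, while the most abundant, the complement gene C1qa, was at 1470 FPKM in shTaz and 1868 FPKM in shLuc. Mertk, at 3.22 FPKM in shTaz and 0.969 FPKM in shLuc, was the 1 marker of this list that was 2-fold higher, but its difference of 1.10 was 0.85 with the GC trend removed. Mertk averaged 1 FPKM or more only through the shTaz column. Above 0 were 7 of the 11 markers as deposited and 10 with the GC trend removed, when their median was 0.20 and C1qa was at 0.00. The 4 listed monocyte markers of 6 summed to 27.6 FPKM in shTaz and 40.4 FPKM in shLuc, and Ly6c2, which marks the inflammatory monocytes that carry CCR2, was at 1.54 FPKM in shTaz and 6.90 FPKM in shLuc. Ly6c2 thus ran against Ccr2. Of the other monocyte markers, Ly6c1 was at 10.4 FPKM in shTaz and 16.5 FPKM in shLuc and Plac8 at 7.43 and 8.91 FPKM. F13a1 was nearly equal, at 8.26 FPKM in shTaz and 8.15 FPKM in shLuc. Below 0 on the difference scale were 3 of the 4 as deposited and 4 with the GC trend removed. The part of cell number in the Ccr2 and Ccr1 levels was not tested.

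The eosinophil axis was represented by a single member averaging 1 FPKM or more. Ccl24, or eotaxin-2, also made by macrophages, was at 2.73 FPKM in shTaz and 1.66 FPKM in shLuc. Ccl11, or eotaxin, which fibroblasts make, was listed at 0 in shTaz and at 1.28 FPKM in shLuc. Their receptor Ccr3 was listed at 0 in shTaz and at 0.184 FPKM in shLuc. Siglec5, the gene of Siglec-F, was the 1 listed of 5 eosinophil markers, at 0.1003 FPKM in shTaz and 0 in shLuc.

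The interferon-linked ligands of CXCR3 were lower or near 0. Cxcl10, or IP-10, which attracts activated T and NK cells, was at 8.98 FPKM in shTaz and 16.3 FPKM in shLuc, a difference of -0.79, or -1.08 with the GC trend removed. Cxcl9 was at 0.636 FPKM in shTaz and 0.574 FPKM in shLuc, and Cxcl11 was listed at 0 in shTaz and at 0.230 FPKM in shLuc. The receptor Cxcr3 was at 0.280 FPKM in shTaz and 0.222 FPKM in shLuc. Cxcl10 was thus the only ligand of this receptor over 1 FPKM in either column. Of its exon bases 5.91% lie opposite exons of Art3, and 18.3% of those of Cxcl16 opposite Zmynd15, and whether counting used the strand is not given in the sources used here. Cxcl16, a membrane-bound chemokine and scavenger receptor of macrophages, was at 42.9 FPKM in shTaz and 41.3 FPKM in shLuc. Its receptor Cxcr6 was at 1.61 FPKM in shTaz and 0.585 FPKM in shLuc, under 2-fold at a difference of 0.72 but 1.32 with a pseudocount of 0.1 FPKM.

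Chemokines of homing T cells and dendritic cells were lower for Ccl17 and low for the rest. Ccl17, or TARC, a ligand of CCR4 from dendritic cells and macrophages, was at 8.63 FPKM in shTaz and 13.8 FPKM in shLuc. Ccl22, the other ligand of CCR4, was at 1.13 FPKM in shTaz and 1.30 FPKM in shLuc. Ccl25, a thymic and intestinal ligand of CCR9, was at 1.26 FPKM in shTaz and 0.926 FPKM in shLuc, and the sign of its difference turned with the GC trend removed. The receptors Ccr4, at 0.417 FPKM in shTaz and 0.111 FPKM in shLuc, and Ccr9, at 0.0459 FPKM in shTaz and 0.0825 FPKM in shLuc, were near the floor of the table. Ccl1, the ligand of CCR8, and Ccr6, the receptor for CCL20, were listed at 0 in shTaz and at 1.43 and 1.39 FPKM in shLuc. Ccr10 ran the other way, at 0.777 FPKM in shTaz and 0 in shLuc, and its ligand Ccl28 was at 0.384 FPKM in shTaz and 0.0896 FPKM in shLuc. The symbols Ccl20 and Ccl26 were not listed.

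Lymphocyte markers were low in both columns. Of 9 T cell markers 7 were listed, with a summed level of 2.07 FPKM in shTaz and 3.68 FPKM in shLuc, and the defining genes Cd3d, Cd3e and Cd8a were listed at 0 in shTaz and under 0.3 FPKM in shLuc. The 3 listed NK cell markers of 6 summed to 0.522 FPKM in shTaz and 0.419 FPKM in shLuc, and the 2 listed B cell markers of 5 to 0.296 FPKM in shTaz and 1.79 FPKM in shLuc. Dendritic cell markers summed to 6.27 FPKM in shTaz and 8.81 FPKM in shLuc over 6 genes, of which Flt3 and Clec9a were listed at 0 in shTaz. Levels of the T cell chemokines were therefore measured in tumors with very few transcripts of T cells.

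Among the homeostatic members, Cxcl12 and its receptors were higher by small amounts. Cxcl12, or SDF-1, which holds stem cells and leukocytes in their niches, was at 84.0 FPKM in shTaz and 56.0 FPKM in shLuc. Its receptor Cxcr4 was at 36.1 FPKM in shTaz and 28.3 FPKM in shLuc, and Cxcr7 (now Ackr3), which scavenges CXCL12, at 23.3 FPKM in shTaz and 16.7 FPKM in shLuc. All 3 had differences under 2-fold, at 0.58, 0.34 and 0.46, and that of Cxcr4 was 0.01 with the GC trend removed. Cxcl14, an abundant chemokine of epithelia and fibroblasts, was nearly equal at 67.4 FPKM in shTaz and 66.0 FPKM in shLuc. Cxcl13, which draws B cells into follicles, was at 1.22 FPKM in shTaz and 1.14 FPKM in shLuc. The symbol of its receptor gene, Cxcr5, was not listed.

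Ccr7, which guides dendritic cells and T cells to lymph nodes, was at 0.672 FPKM in shTaz and 1.87 FPKM in shLuc. Its ligand Ccl19 was listed at 0 in shTaz and at 0.796 FPKM in shLuc. Both thus ran lower in the shTaz column, but 65.6% of the 30-base stretches of the Ccl19 transcript also occur in another annotated gene, so that its level is uncertain. Cxcl17, a mucosal chemokine, was at 0.386 FPKM in shTaz and 0 in shLuc. Pf4, or platelet factor 4, a product of megakaryocytes that macrophages also express, was at 63.4 FPKM in shTaz and 43.8 FPKM in shLuc. The 5 platelet markers had a summed level of 4.04 FPKM in shTaz and 5.96 FPKM in shLuc, where Gp9 and Gp1ba were listed at 0 in shTaz and Gp5 at 0 in shLuc.

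The atypical receptors held the receptor with the largest positive and the one with the largest negative difference. Ccrl2, which binds chemerin and is induced in activated macrophages and neutrophils, was at 4.85 FPKM in shTaz and 1.41 FPKM in shLuc, a ratio of 3.44 and a difference of 1.28. It stayed 2-fold higher with the GC trend removed, at 1.07. Darc (now Ackr1), which carries chemokines across the endothelium of venules, was at 0.418 FPKM in shTaz and 3.01 FPKM in shLuc, a difference of -1.50. Of its annotated exon bases 25.7% also lie in exons of Cadm3 on the same strand, so its level may hold reads of that gene. The 6 endothelial markers summed to 75.5 FPKM in shTaz and 115 FPKM in shLuc, none of them 2-fold different, with Plvap at 36.2 FPKM in shTaz and 67.2 FPKM in shLuc and Kdr at 2.68 FPKM in shTaz and 1.69 FPKM in shLuc. Their part in the Darc level was not tested.

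Members lie in clusters of neighbouring genes, and some neighbours differed in opposite directions (positions from GENCODE M21 on mm10). On chromosome 11, Ccl2, Ccl7, Ccl11, Ccl12, Ccl8 and Ccl1 follow each other within 270 kb. Ccl12 (82101845 to 82103400, plus strand) and Ccl8 (82115185 to 82116799, plus strand) are 11.8 kb apart and had differences of 0.89 and -2.47. No 30-base stretch of the longest transcript of Ccl8 or Ccl12 occurs in another annotated gene. A second cluster on the same chromosome holds Ccl5, Ccl9, Ccl6, Ccl3 and Ccl4 within 139 kb, where Ccl5 alone was below 0 on the difference scale as deposited, and Ccl6 and Ccl3 were too with the GC trend removed.

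The cluster on chromosome 5 from Cxcl5 to Cxcl2 spans 147 kb and holds the CXCR2 ligands and Pf4. Of its 7 members 6 were higher in shTaz and Cxcl15 was lower. The 4 averaging 1 FPKM or more, Cxcl5, Ppbp, Pf4 and Cxcl2, were higher, as were 58.3% of all genes with such a mean. Of the 6, Cxcl5 and Pf4 had at least 1 FPKM in both columns. Between Cxcl2 and Cxcl3, 7.17% of the 30-base stretches of the Cxcl2 transcript occur in other genes, Cxcl3 sharing the most, so some of their reads could have been exchanged. On chromosome 9 lie the receptor genes Ccr9, Cxcr6, Ccr1, Ccr3 and Ccr2, of which Cxcr6, Ccr1 and Ccr2 averaged 1 FPKM or more and were higher in shTaz. On chromosome 8, Ccl22, Cx3cl1 and Ccl17 lie within 66.4 kb and differed by -0.11, 0.11 and -0.62.

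**Figure D3:**
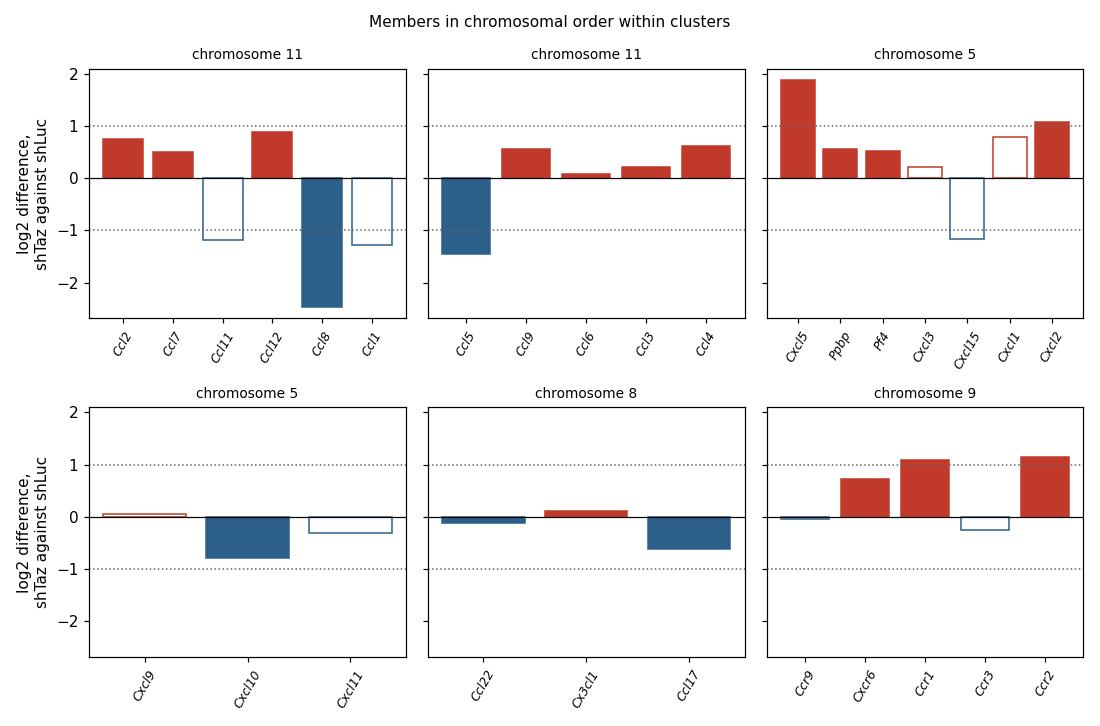
Difference on the log2 scale of the members in 6 chromosomal clusters, in chromosomal order, with dotted lines at 2-fold. Filled bars are members averaging 1 FPKM or more, open bars the others, red above and blue below 0. Ccl12 at 0.89 stands beside Ccl8 at -2.47, and Cxcl5 at 1.88 and Cxcl2 at 1.08 stand at the ends of their cluster.

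Across all genes the difference went with GC content, and the members shared this. Over the 33 members the Spearman correlation of the difference with GC content was -0.58, and over 11084 genes it was -0.56, both given as descriptions across genes, which share their libraries. The members had a median GC content of 47.1%, against 50.2% over all genes. Ccr1 and Ccr2 were among the members poorest in GC, at 39.1% and 39.4%. With the trend removed, the median of the members was 0.075 and that of all genes 0.00, 2 members (Cxcl5 at 1.37 and Ccrl2 at 1.07) were 2-fold higher and 4 (Ccl8 at -2.74, Darc at -1.58, Ccl5 at -1.46 and Cxcl10 at -1.08) 2-fold lower. All genes were then 2-fold higher in 1.5%, 2-fold lower in 3.15% and 2-fold in either direction in 4.65%. Of all genes called 2-fold, 54.9% were higher as deposited, 38.6% with median-ratio scaling, 39.3% with quantile normalization and 32.2% with the GC trend removed.

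**Figure D4:**
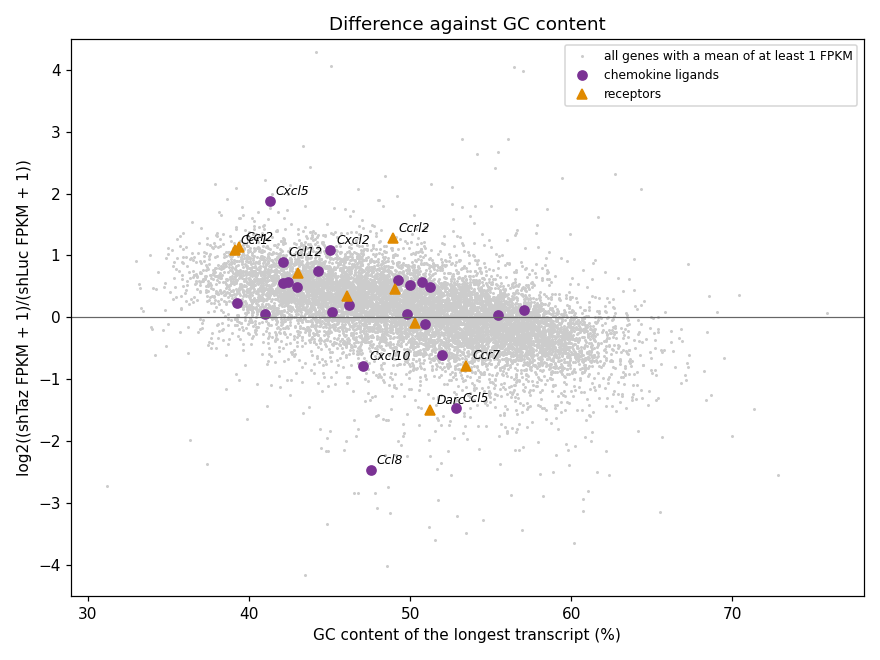
Difference on the log2 scale against the GC content of the longest transcript in percent, for all genes that averaged 1 FPKM or more (grey), the ligands (circles) and the receptors (triangles). The grey cloud slopes downward with GC content. Ccr1 and Ccr2 lie at its upper left, within the cloud, and Ccl8 lies far below most of its points but not below all of them. Outside the axis lie 8 genes.

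Genes that transmit chemokine signals were mostly a little higher. The list of 28, with the G protein subunits, arrestins, receptor kinases and the Rac pathway, was measured whole, with 1 member 2-fold higher, none 2-fold lower and a median difference of 0.37. Rgs1, which ends G protein signalling, was the 2-fold higher gene at 3.27 FPKM in shTaz and 0.991 FPKM in shLuc, and its difference of 1.10 was 0.46 with the GC trend removed. Rgs1 averaged 1 FPKM or more only through the shTaz column. The most abundant, Gnai2, the inhibitory G protein subunit on which leukocyte migration depends, was at 286 FPKM in shTaz and 364 FPKM in shLuc. In all, 24 of 28 were above 0 on the difference scale, against 58.3% of all genes, and 25 with the GC trend removed, against 50.3%. Dock2, the Rac activator of leukocytes, was at 12.3 FPKM in shTaz and 7.46 FPKM in shLuc, and Vav1 at 11.9 FPKM in shTaz and 5.78 FPKM in shLuc. The leukocyte genes Ptprc (CD45) and Cd53 were 2-fold higher too, at 10.7 and 14.9 FPKM in shTaz and 3.96 and 6.50 FPKM in shLuc, but their differences of 1.23 and 1.08 were 0.67 and 0.53 with the GC trend removed, and all 4 pan-leukocyte markers summed to 342 FPKM in shTaz and 295 FPKM in shLuc.

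Inducers of chemokines differed little as a list. Of 19 genes 14 were listed and 11 had a mean of at least 1 FPKM, with a median difference of 0.13, or -0.02 with the GC trend removed. Il1a, a cytokine released by stressed and dying cells, was the 1 gene that was 2-fold higher, at 4.27 FPKM in shTaz and 0.544 FPKM in shLuc. Il1a averaged 1 FPKM or more only through the shTaz column. The neutrophil growth factor gene Csf3, under the minimum mean, was at 1.73 FPKM in shTaz and 0.258 FPKM in shLuc, and Csf2 was at 0.990 FPKM in shTaz and 0 in shLuc. Tnf was at 2.86 FPKM in shTaz and 1.45 FPKM in shLuc. The more abundant Il1b was at 27.6 FPKM in shTaz and 22.4 FPKM in shLuc, Csf1 at 93.5 FPKM in shTaz and 76.1 FPKM in shLuc, and the NF-kB inhibitor gene Nfkbia at 63.4 FPKM in shTaz and 89.9 FPKM in shLuc.

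Other cell types that make or bind chemokines also differed between the columns. Mast cell markers summed to 1.30 FPKM in shTaz and 36.8 FPKM in shLuc over 5 listed genes of 7, with Cpa3, Cma1 and Mcpt4 listed at 0 in shTaz. The most abundant in shLuc were Tpsab1, at 0.895 FPKM in shTaz and 17.3 FPKM in shLuc, and Tpsb2, at 0.409 and 14.2 FPKM. Fibroblast markers summed to 1006 FPKM in shTaz and 1789 FPKM in shLuc over 7 genes, 4 of them 2-fold lower, namely Dcn, Col1a2, Dpt and Postn. The most abundant, Col1a1, was at 841 FPKM in shTaz and 1375 FPKM in shLuc. Pdgfra ran the other way, at 13.5 FPKM in shTaz and 8.75 FPKM in shLuc. The part of mast cells and fibroblasts in the levels of Ccl8, Ccl5 and Ccl11 was not tested. Of 8 neuroendocrine markers that define the labelled small cell lung cancer, 4 were listed. Ncam1 was at 43.8 FPKM in shTaz and 39.8 FPKM in shLuc, but Syp stayed under 0.6 FPKM in both columns and Insm1 was listed at 0 in shTaz and 0.169 FPKM in shLuc. The markers of the label were thus mostly near 0, apart from Ncam1 and Uchl1, the last at 1.51 FPKM in shTaz and 10.1 FPKM in shLuc.

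**Figure D5:**
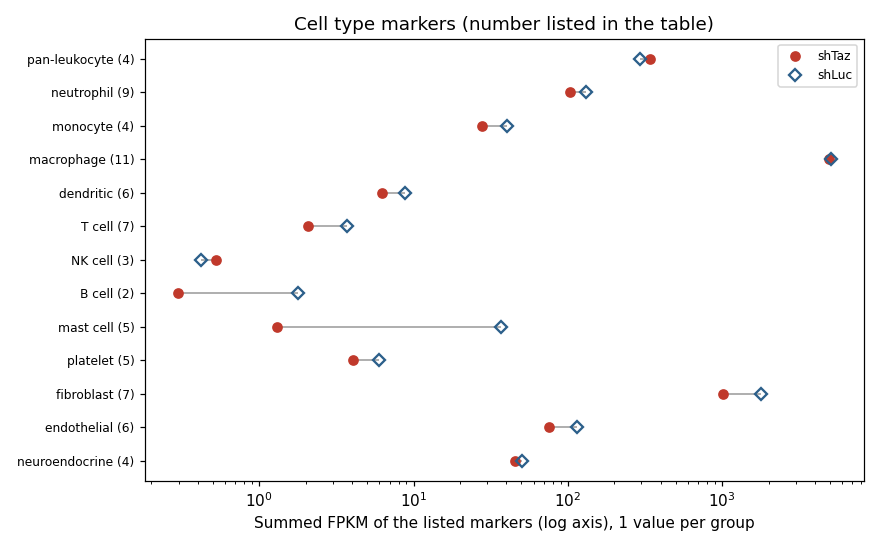
Summed FPKM of the markers of each cell type on a log axis, with 1 value per group (filled circles shTaz, open diamonds shLuc) and the number of listed markers in parentheses. Eosinophil markers, which summed to 0 in shLuc, are not shown. Mast cell markers lie at 1.30 FPKM in the shTaz column and 36.8 FPKM in the shLuc column, and macrophage markers nearly coincide at 4919 FPKM in shTaz and 5071 FPKM in shLuc.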

How the data were processed

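Trim Galore, TopHat and the build mm10 are named in the submitters' processing notes. Versions, the FPKM program and the annotation are not given in the sources used here. The authors deposited FPKM values for 15424 genes in 1 column per group, each headed with a label that both samples of the group carry, and no listed gene is at 0 in both columns. FPKM corrects for length and library total, not for GC content. Low values were searched for whole-read steps, and the best of 400 steps placed 32.7% of 686 shTaz and 39.7% of 695 shLuc values within 0.1 of a whole multiple, where a single step gives 20% by chance. No read number was recovered.

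Differences were computed on FPKM as deposited with a pseudocount of 1 FPKM, for genes that averaged 1 FPKM or more. With 1 value per group, no test was run. Transcript length, GC content and positions came from the longest transcript in GENCODE M21, which covered 95.1% of these genes. GC and length trends were removed by lowess (span 0.3, statsmodels 0.14.6). The removal was tested on simulated data with a linear trend on GC content, and not with a trend on length. Other settings were quantile normalization, median-ratio scaling, a pseudocount of 0.1 FPKM, no filter, and a minimum average of 5 FPKM. 1 member is counted among the members but its own result is not reported here. The other members are accounted for by their group. Some genes outside the rule were named, where 2-fold different, among the most abundant of their list or, in part, after their values were seen. The members and gene lists were chosen with earlier results of these data known.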

Additional observations from a re-analysis of the deposited data

How the results depend on the processing

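No paired analysis was possible because the table holds 1 column per group, and for the same reason no replicate was left out. Of the 33 members, 24 kept the sign of their difference in each setting that included them, 17 above and 7 below 0. Among the others were Ccl3, Ccl6, Ccl25, Cx3cl1, Cx3cr1, Cxcl13, Cxcl14 and Cxcl16. Ccl8, Ccl5, Darc, Cxcl5 and Ccrl2 stayed 2-fold in every setting that included them. The cause of the shifts below was not tested, except where a filter removes or adds members.

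The CXCR2 ligands had a median of 1.08 over the 3 that averaged 1 FPKM or more, of which Cxcl2 and Ppbp did so only through the shTaz column. With no filter (50 members), 7 were 2-fold lower, against 2.98% of all genes. The lower members that this setting added were Ccl1, Ccl11, Ccr6 and Cxcl15, each with a mean under 1 FPKM, and all but Cxcl15 listed at 0 in shTaz. The median of the members was then 0.21 and that of the CXCR2 ligands 0.68. With a mean of at least 5 FPKM (22 members), 3 were 2-fold higher, against 2.99% of all genes. The CXCR2 ligands were then Cxcl5 alone at 1.88, as they were with at least 1 FPKM in both columns, a setting chosen after the data were seen (1.88). With a pseudocount of 0.1 FPKM the CXCR2 ligands had a median of 1.82. Median-ratio scaling moved the median of all genes by over 0.1, to 0.00, and that of the members to 0.33. Quantile normalization gave 0.31 for the members and 0.95 for the CXCR2 ligands. With the GC trend removed, 2 members were 2-fold higher, against 1.5% of all genes, and the medians were 0.075 and 0.70. With the length trend removed as well, 2 were 2-fold higher, against 1.71% of all genes, and the medians were 0.23 and 0.74. Of the members called 2-fold, 62.5% were higher as deposited, 41.7% with no filter and 33.3% with either trend removal.

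The unknown depth gives no counting error for any level, and the 17 members under a mean of 1 FPKM rest on values of at most 1.502 FPKM.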

Other observations

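Chemokine system genes outside the naming rule were few. Rarres2, the gene of chemerin, which binds CCRL2 and CMKLR1, was at 4.74 FPKM in shTaz and 14.7 FPKM in shLuc, a 2-fold lower level, while its signalling receptor gene Cmklr1 was at 30.4 FPKM in shTaz and 22.9 FPKM in shLuc. Ccl27a, a skin chemokine with near-identical gene copies in the mouse and therefore uncertain, was at 5.10 FPKM in shTaz and 7.86 FPKM in shLuc. Xcr1, a receptor of cross-presenting dendritic cells, was at 0.353 FPKM in shTaz and 0.133 FPKM in shLuc. The scavenging receptor gene Ccbp2 (now Ackr2) was at 0.272 FPKM in shTaz and 0.413 FPKM in shLuc, and Ccrl1 (now Ackr4) was listed at 0 in shTaz and at 0.262 FPKM in shLuc. Dpp4, a peptidase that trims chemokines, was at 0.228 FPKM in shTaz and 0.3995 FPKM in shLuc.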
